A study of Mus musculus with 6 samples.

Results

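KPC630 is 1 of 6 mouse pancreatic ductal adenocarcinoma (PDAC) cell lines whose polyadenylated RNA was sequenced, and it is described here by the genes that place it outside the range of the other 5 lines. A gene was counted when it reached at least 10 CPM (a gene's counts scaled to the size of its library) in any line and its level in KPC630 lay at least 2-fold above the highest or at least 2-fold below the lowest of KPC142, KPC180, KPC469, KPC490 and KPC850. Of 10234 genes at 10 CPM, among 56953 in the table, 84 met this rule. KPC630 was at least 4-fold above the highest other line for 16 genes, which is 0.156% of those examined, and at least 4-fold below the lowest for 13 genes, which is 0.127%. Of these 13, 8 remained when counts under 3 were raised to a floor of 3 counts, and 5 of the 13 had 0 counts and 3 had 1 to 3 counts in KPC630. At 2-fold it lay above for 43 genes (0.42%) and below for 41 genes (0.401%), together 0.821%. Without any fold limit, KPC630 was the highest of the 6 lines for 1428 genes (14%) and the lowest for 1388 (13.6%). Counts of highest and lowest genes in the lists below are to be read beside these shares.

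The labels describe every line in the same way, as adenocarcinoma cells derived from KPC mice, the usual name of models in which mutant cancer driver alleles are switched on in the pancreas. They state neither the alleles, the promoter driving recombination, the age or sex of the animals nor the passage, and no treatment separates the lines. The study's question was what distinguishes lines whose tumours draw few CD8+ T cells from lines whose tumours draw many, but the labels assign no line to either class. Each line is 1 library with no replicate, so no difference between lines was tested, and the genes were selected by the same values that are printed for them. Intervals given for ratios are exact conditional binomial 95% intervals that cover counting error only and not the spread between cultures. In such bulk RNA, fewer cells expressing a gene and less RNA per cell cannot be told apart.

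Library totals ran from 16471558 to 18701274 counts, the highest in KPC630, so that 1 count was worth 0.0532 to 0.0607 CPM. The epithelial keratins of ductal tumour cells were abundant in KPC630, with 2572 CPM of Krt7, 3202 of Krt8, 2126 of Krt18 and 2755 of Krt19, and Cdh1, the epithelial cadherin, had 462 CPM. For all these epithelial genes except Krt7 and Krt19 the KPC630 level lay inside the range of the other 5 lines, and for Krt7 and Krt19 it lay above it by less than 2-fold. Of the genes listed for other cell types, 12 of 13 for T and NK cells, 6 of 6 for B cells and 16 of 16 for acinar and endocrine cells were under 1 CPM in KPC630, and Cd3e, Cd8a, Ins1, Prss1 and Ptf1a had 0 counts there. Of the macrophage and neutrophil genes 9 of 12 were under 1 CPM, Adgre1, Itgam, Lyz2 and Aif1 had 0 counts, and the summed level was 32.4 CPM in KPC630 and 34.8 to 142 CPM in the others, most of it Cd14. Of the endothelial genes 7 of 9 were under 1 CPM and Pecam1 and Emcn had 0 counts, with a summed level of 7.13 CPM in KPC630 and 1.80 to 6.04 CPM in the others, Egfl7 contributing most in KPC630.

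Several of the genes that set KPC630 apart belong to well-known signalling systems. Prostaglandin E2 is made from arachidonic acid through the cyclooxygenases, of which Ptgs2 encodes the inducible one, and its breakdown begins with the dehydrogenase encoded by Hpgd. Cxcl12 is a chemokine that attracts cells bearing Cxcr4 and is made in pancreatic tumours chiefly by fibroblasts, and Acta2 encodes the smooth muscle actin that marks contractile fibroblasts. Impact restrains the kinase Gcn2, which senses amino acid shortage at the start of the integrated stress response, and is imprinted in the mouse. Ptprn encodes a membrane protein of dense core secretory vesicles best known from endocrine cells.

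The promoters of Acta2, Hpgd, Cxcl12, Ptprn and Ptgs2 are printed because the account turns on these genes, each with at least 170 counts in KPC630. Each runs from 250 bases before to 50 after the gene's start in RefSeq on build GRCm38.p6, whereas the submitters' processing notes name GRCm39, and is written 5′ to 3′ on the strand of the gene, with CG dinucleotides in capitals. They lie at chr19:34255324-34255623 on the minus strand for Acta2, chr8:56294302-56294601 on the plus strand for Hpgd, chr6:117168285-117168584 on the plus strand for Cxcl12, chr1:75264159-75264458 on the minus strand for Ptprn and chr1:150099781-150100080 on the plus strand for Ptgs2.
Acta2: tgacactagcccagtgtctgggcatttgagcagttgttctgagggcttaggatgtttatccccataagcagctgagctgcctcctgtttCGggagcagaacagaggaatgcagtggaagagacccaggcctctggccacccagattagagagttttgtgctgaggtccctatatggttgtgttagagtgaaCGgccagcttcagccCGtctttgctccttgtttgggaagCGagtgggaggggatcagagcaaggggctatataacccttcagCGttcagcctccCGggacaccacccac
Hpgd: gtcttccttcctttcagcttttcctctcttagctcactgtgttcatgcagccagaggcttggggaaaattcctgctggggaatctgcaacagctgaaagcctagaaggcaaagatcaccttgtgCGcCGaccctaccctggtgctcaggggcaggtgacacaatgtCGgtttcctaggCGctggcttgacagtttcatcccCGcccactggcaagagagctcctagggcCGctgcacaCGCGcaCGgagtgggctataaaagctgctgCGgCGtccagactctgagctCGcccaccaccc
Cxcl12: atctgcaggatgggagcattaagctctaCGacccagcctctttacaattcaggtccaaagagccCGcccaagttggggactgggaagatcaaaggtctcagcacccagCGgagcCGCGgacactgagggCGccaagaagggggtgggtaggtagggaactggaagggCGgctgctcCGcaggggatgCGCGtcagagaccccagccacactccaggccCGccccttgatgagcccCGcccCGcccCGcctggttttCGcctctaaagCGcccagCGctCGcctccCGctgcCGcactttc
Ptprn: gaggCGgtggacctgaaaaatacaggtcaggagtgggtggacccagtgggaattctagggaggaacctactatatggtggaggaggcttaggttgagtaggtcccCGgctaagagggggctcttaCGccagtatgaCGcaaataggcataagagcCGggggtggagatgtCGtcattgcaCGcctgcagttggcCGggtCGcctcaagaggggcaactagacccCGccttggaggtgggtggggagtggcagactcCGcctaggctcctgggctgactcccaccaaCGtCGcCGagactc
Ptgs2: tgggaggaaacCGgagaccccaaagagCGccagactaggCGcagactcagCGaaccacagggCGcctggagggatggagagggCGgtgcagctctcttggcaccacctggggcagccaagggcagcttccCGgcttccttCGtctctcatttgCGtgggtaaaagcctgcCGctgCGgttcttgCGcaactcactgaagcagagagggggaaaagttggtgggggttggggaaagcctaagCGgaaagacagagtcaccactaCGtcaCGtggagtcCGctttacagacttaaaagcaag

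The 5 windows held 6 CG dinucleotides for Acta2, 12 for Hpgd, 20 for Cxcl12, 14 for Ptprn and 16 for Ptgs2. The letters TATAAA, searched on both strands, occurred in the Hpgd window and in none of the other four, and were present in 6.5% of 8091 promoters of genes at 10 CPM that the RefSeq table holds. The letters TGACGTCA, the full cyclic AMP response element, occurred in none of the 5 windows and in 3.46% of those promoters. Only exact matches to these letters were counted, and variant forms of either element were not searched. RefSeq promoters were found for 34 of the 43 genes above and 33 of the 41 genes below, and no comparison of promoter sequence between the sets was made because fewer than 80% of the genes above had one. No DNA methylation or factor binding was measured.

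**Figure D1:**
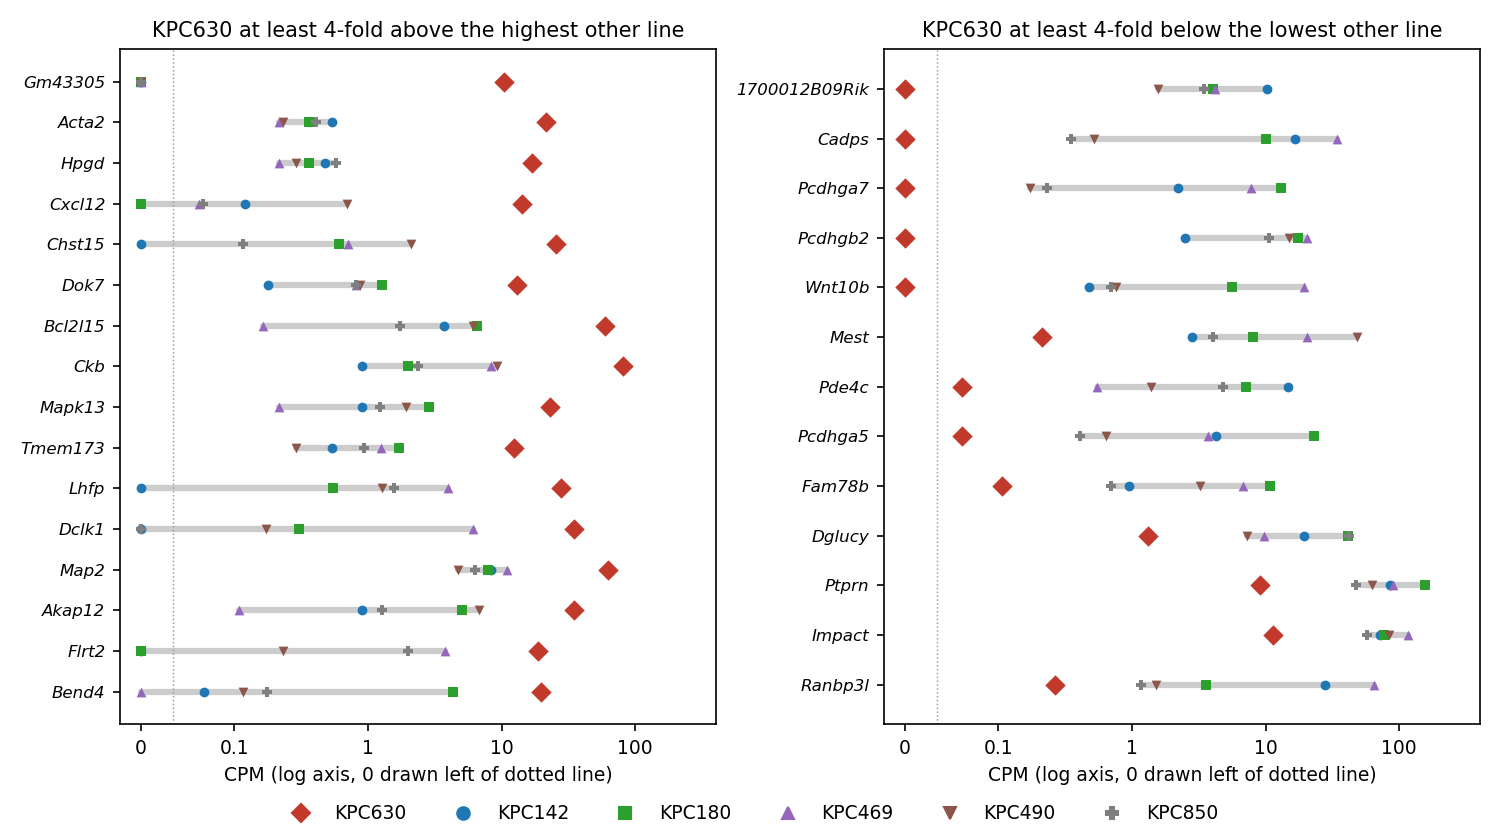
CPM of the 29 genes at least 4-fold outside the other lines, with 1 point per line on a log axis, KPC630 as red diamonds, the other 5 lines as smaller symbols and a grey bar over their range. In KPC630 the 16 genes on the left lay between 10.4 and 81.1 CPM, to the right of every other line, and the 13 on the right lay between 0 and 11.4 CPM, to the left of every other line.

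The genes farthest above the other lines were Gm43305 and then Acta2, Hpgd and Cxcl12, all 4 under 1 CPM in every line but KPC630. These were the only 4 of the 10234 genes with that pattern, and a gene with it can pass the expression limit only through KPC630. Further genes with it lay under the limit, among them Tbc1d9 with 9.796 CPM in KPC630 and 0.117 to 0.697 CPM in the others. Gm43305 (ENSMUSG00000105703), a predicted gene annotated as a processed transcript, had 10.4 CPM in KPC630 and 0 counts in each of the other 5 libraries. Against a floor of 3 counts per library it was at least 57.3-fold higher.

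Acta2 (ENSMUSG00000035783), the smooth muscle actin, had 21.6 CPM in KPC630, against 0.539 CPM for KPC142, 0.364 for KPC180, 0.218 for KPC469, 0.232 for KPC490 and 0.408 for KPC850. The ratio to the next line was 39.98 (counting interval 20.9 to 88.1), and the other 5 libraries held between 4 and 9 counts each. Several other genes of the contractile programme, named after their values were seen, were under 1 CPM in every line. Tagln, the actin-binding protein transgelin, had 0.586 CPM in KPC630 against 0.436 to 0.639 CPM across the other lines, and Cnn1, calponin, had 0.373 CPM in KPC630 against 0 to 0.182 CPM in the others. Myh11, Lmod1, Des and Actc1 had 0 counts in KPC630. In a list of 24 contractile genes and targets of serum response factor, 11 were under 1 CPM in every line and 13 reached 10 CPM. Of these 13, Acta2 was the only one at least 2-fold above or below the other lines. In KPC630 2 of the 13 were highest, and the median log2 ratio to the median of the others was 0.24. Flna, the most abundant gene of the list there, had 3007 CPM in KPC630 against 1598 to 3493 CPM in the others. Tpm2, a tropomyosin, was low in KPC630 at 8.41 CPM, yet KPC469 was lower still within a range of 3.98 to 124 CPM across the other lines.

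Hpgd (ENSMUSG00000031613), the enzyme that begins prostaglandin breakdown, had 17.04 CPM in KPC630, against 0.479 CPM for KPC142, 0.364 for KPC180, 0.218 for KPC469, 0.2904 for KPC490 and 0.583 for KPC850. The ratio to the next line was 29.2 (counting interval 15.7 to 61.5). Ptgs2 (ENSMUSG00000032487), the inducible cyclooxygenase, stood on the opposite side, with 18.4 CPM in KPC630, against 209 CPM for KPC142, 141 for KPC180, 259 for KPC469, 97.4 for KPC490 and 61.7 for KPC850. KPC630 was 3.35-fold below the lowest of these (counting interval 2.96 to 3.79), so the line with the highest breakdown enzyme also had the lowest inducible synthesis enzyme. The constitutive cyclooxygenase Ptgs1 was not low, at 139 CPM in KPC630 against 9.04 to 146 CPM in the others, and the E2 synthase Ptges had 118 CPM in KPC630 against 0.545 to 125 CPM in the others. Slco2a1, the prostaglandin transporter, was lowest in KPC630 at 56.2 CPM, against 66.5 to 348 CPM in the others, as was the phospholipase Pla2g4a at 36.8 CPM in KPC630, against 47.2 to 121 CPM in the others, both by less than 2-fold. Ptgr1, which reduces prostaglandin breakdown products, had 106 CPM in KPC630 against 24.9 to 116 CPM in the others. Of 11 prostaglandin genes at 10 CPM, 2 were highest and 3 lowest in KPC630, and the median log2 ratio was 0.20, beside 0.01 over all genes.

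Cxcl12 (ENSMUSG00000061353) had 14.3 CPM in KPC630, against 0.1198 CPM for KPC142, 0 for KPC180, 0.0545 for KPC469, 0.697 for KPC490 and 0.0583 for KPC850. KPC630 was 20.6-fold above KPC490 (counting interval 11.6 to 40.3), and KPC180 had 0 counts. Ackr3, a scavenging receptor for the same chemokine, had 19.8 CPM in KPC630, inside the range of 9.81 to 72.2 CPM across the other lines. Cxcl12 and Acta2 are both abundant in fibroblasts, whose listed genes were examined in the same libraries. Of 20 fibroblast genes, 17 were under 1 CPM in KPC630, and Col3a1, Pdgfrb, Dcn, Lum, Pdpn, Postn, Fap, Thy1, Des and Dpt had 0 counts. The summed level of the list was 57.9 CPM in KPC630 and 8.39 to 34.4 CPM across the other lines, and 52.5 CPM of the KPC630 sum came from Ly6c1 alone, against 0.121 to 32.4 CPM in the others. Ppbp, another chemokine that recruits neutrophils, had 11.8 CPM in KPC630 against 0.348 to 4.31 CPM in the others, 2.74-fold above KPC142. Of 9 chemokine and colony stimulating factor genes at 10 CPM in the list of 32, 2 were highest in KPC630 and 1 lowest, with a median log2 ratio of 0.00. Ppbp was not on that list.

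Immune signalling genes of other kinds were also among those above. Tmem173 encodes STING, the adaptor through which cytosolic DNA triggers interferon production, and had 12.5 CPM in KPC630, against 0.539 CPM for KPC142, 1.699 for KPC180, 1.25 for KPC469, 0.2904 for KPC490 and 0.933 for KPC850. The ratio to KPC180 was 7.33 (counting interval 4.94 to 11.3). Of the interferon-stimulated genes, none of 14 at 10 CPM was 2-fold outside the other lines, and their median log2 ratio was 0.21 with 2 highest and 0 lowest in KPC630. Il13ra1, a subunit of the receptor for interleukin-13 and interleukin-4, had 26.03 CPM in KPC630 and 0.719 to 7.32 CPM in the others, 3.56-fold above KPC490. Ptpn22, a tyrosine phosphatase that restrains lymphocyte receptor signalling, had 46.05 CPM in KPC630 and 6.35 to 16.4 CPM in the others. Itgb7, the integrin chain that pairs with alpha 4 or alpha E, had 31.9 CPM in KPC630 and 2.67 to 11.1 CPM in the others. Zap70 and Cd3e, which mark T cells, had 0 counts in KPC630, and the summed T and NK cell list was 2.02 CPM there and 0.436 to 1.88 CPM across the other lines. In the opposite direction, Ifnlr1, a chain of the receptor for type III interferon, had 5.803 CPM in KPC630 and 13.1 to 17.3 CPM in the others.

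Some signalling kinases and scaffolds, grouped by hand, were also at 4-fold above. Mapk13, the p38 delta kinase, had 22.9 CPM in KPC630, against 0.899 CPM for KPC142, 2.85 for KPC180, 0.218 for KPC469, 1.92 for KPC490 and 1.22 for KPC850. It was 8.03-fold above KPC180 (counting interval 5.93 to 11.1). Among 34 MAPK feedback and output genes at 10 CPM, Mapk13 alone was 2-fold outside the other lines. In that list 3 genes were highest and 4 lowest in KPC630, and the median log2 ratio was -0.00. Akap12, a scaffold that holds protein kinases A and C, had 34.8 CPM in KPC630, against 0.899 CPM for KPC142, 5.04 for KPC180, 0.109 for KPC469, 6.79 for KPC490 and 1.28 for KPC850. Its ratio to KPC490 was 5.12, and KPC469 with 2 counts was the lowest. Dok7, an adaptor known for activating the muscle receptor kinase MuSK, had 12.99 CPM in KPC630, against 0.1798 CPM for KPC142, 1.27 for KPC180, 0.817 for KPC469, 0.871 for KPC490 and 0.816 for KPC850. It was 10.2-fold above KPC180 (counting interval 6.52 to 16.8). Egfr, the epidermal growth factor receptor, was among the genes 2-fold above, with 89.2 CPM in KPC630, against 6.95 CPM for KPC142, 31.7 for KPC180, 24.03 for KPC469, 41.6 for KPC490 and 37.5 for KPC850. KPC142 stood far below the rest for Egfr, and KPC630 was 2.14-fold above KPC490. Of 38 receptor kinase and growth factor genes at 10 CPM, 7 were highest and 4 lowest in KPC630 with a median log2 ratio of 0.28.

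Genes of metabolism and survival were represented by Ckb, Chst15 and Bcl2l15. Ckb, the brain-type creatine kinase that buffers ATP, had 81.1 CPM in KPC630, against 0.899 CPM for KPC142, 2.003 for KPC180, 8.28 for KPC469, 9.18 for KPC490 and 2.39 for KPC850. The ratio to KPC490 was 8.84 (counting interval 7.496 to 10.5). Bcl2l15, a relative of the Bcl2 apoptosis regulators, had 59.9 CPM in KPC630, against 3.71 CPM for KPC142, 6.55 for KPC180, 0.164 for KPC469, 6.16 for KPC490 and 1.75 for KPC850. It was 9.14-fold above KPC180, and KPC469 held only 3 counts. Bcl2l15 and Ptpn22 lie next to each other on chromosome 3 among genes at 10 CPM, and both were 2-fold or more above the other lines. Chst15, a sulfotransferase that adds a further sulfate to chondroitin chains, had 25.5 CPM in KPC630, against 0 CPM for KPC142, 0.607 for KPC180, 0.708 for KPC469, 2.09 for KPC490 and 0.117 for KPC850. Its ratio to KPC490 was 12.2 (counting interval 8.69 to 17.6), and KPC142 had 0 counts. In the other direction, Bmf, a pro-apoptotic BH3-only protein, had 3.301 CPM in KPC630 and 10.1 to 19.2 CPM in the others, 3.05-fold below KPC142.

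Map2, Dclk1, Flrt2, Ncam1 and Pmp22, all known from nerve tissue, were among the genes above. They were grouped by hand, as no list of nerve genes was used. Other genes known from neurons lay below, Cadps, Qrfp, Slc17a6 and Ptpn5 among them, each with 7 counts or fewer in KPC630. Map2, a microtubule-associated protein of dendrites, had 62.1 CPM in KPC630, against 8.39 CPM for KPC142, 7.89 for KPC180, 11.1 for KPC469, 4.704 for KPC490 and 6.35 for KPC850. The ratio to KPC469 was 5.61 (counting interval 4.83 to 6.55), and the other 5 lines lay close together. Dclk1, a doublecortin-like microtubule kinase also used as a marker of tuft cells, had 34.7 CPM in KPC630, against 0 CPM for KPC142, 0.303 for KPC180, 6.16 for KPC469, 0.174 for KPC490 and 0 for KPC850. KPC469 was the only other line with more than 5 counts, and KPC630 was 5.64-fold above it. Of 12 tuft cell genes listed after the values were seen, 9 were under 1 CPM in every line. The other 3, Dclk1 included, reached 10 CPM and had a median log2 ratio of 1.68. Ptgs1, also on that list, had 139 CPM in KPC630 against 9.04 to 146 CPM in the others. Avil, an actin regulator of those cells, was lowest in KPC630 at 11.2 CPM, against 17.8 to 208 CPM in the others. Flrt2, a cell surface ligand of the Unc5 guidance receptors, had 18.8 CPM in KPC630, against 0 CPM for KPC142, 0 for KPC180, 3.76 for KPC469, 0.232 for KPC490 and 1.98 for KPC850. It was 4.999-fold above KPC469, and KPC142 and KPC180 had 0 counts. Ncam1, the neural cell adhesion molecule, had 45.3 CPM in KPC630 and 0 to 22.4 CPM in the others, with 0 counts in KPC469. Pmp22, a membrane protein of peripheral myelin, had 47.1 CPM in KPC630 and 0 to 22.4 CPM in the others. For Pmp22, KPC142 and KPC850 expressed the gene while KPC180, KPC469 and KPC490 held 10 counts or fewer.

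The remaining 4-fold genes above were Lhfp and Bend4. Lhfp, a tetraspan membrane protein, had 27.8 CPM in KPC630, against 0 CPM for KPC142, 0.546 for KPC180, 3.98 for KPC469, 1.28 for KPC490 and 1.57 for KPC850. The ratio to KPC469 was 6.99 (counting interval 5.46 to 9.05). Bend4, a BEN domain protein, had 19.6 CPM in KPC630, against 0.0599 CPM for KPC142, 4.37 for KPC180, 0 for KPC469, 0.116 for KPC490 and 0.175 for KPC850. KPC180 expressed it and the other four lines had 3 counts or fewer, and KPC630 was 4.48-fold above KPC180. Bend4 was the gene closest to the 4-fold limit from inside, and Il13ra1 with a ratio of 3.56 the closest from outside. At the 2-fold limit above, Ncam1 lay just inside at 2.02 and Jun just outside at 1.996.

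Genes known from secretory vesicles and neuroendocrine cells were among those below. Of these only Ptprn was on the list of such genes, and Cadps, Qrfp, Slc17a6 and Ddc were grouped with it by hand. Ptprn (ENSMUSG00000026204) had 9.05 CPM in KPC630, against 85.99 CPM for KPC142, 157 for KPC180, 89.3 for KPC469, 62.4 for KPC490 and 47.6 for KPC850. KPC630 was 5.25-fold below KPC850 (counting interval 4.45 to 6.24), and the other lines spread over a 3.3-fold range. Cadps, a factor that primes dense core vesicles for release, had 0 counts in KPC630, against 16.7 CPM for KPC142, 10.1 for KPC180, 34.4 for KPC469, 0.523 for KPC490 and 0.3497 for KPC850. Against a floor of 3 counts it was at least 2.19-fold lower than KPC850, so for Cadps the depth does not show a 4-fold difference from the 2 low lines. Qrfp, a neuropeptide precursor, had 0.373 CPM in KPC630 and 0.933 to 21.4 CPM in the others, and its counting interval against KPC850 of 0.974 to 7.19 includes equality. Slc17a6, the vesicular glutamate transporter VGLUT2, had 2 counts in KPC630, and its ratio of 3.83 to KPC850 had an interval of 0.7296 to 37.8. Ddc, the decarboxylase that makes dopamine and serotonin, had 5.06 CPM in KPC630 and 11.3 to 72.3 CPM in the others. Of 19 dense core vesicle and neuroendocrine genes, 4 reached 10 CPM, with a median log2 ratio of -0.93. Ptprn was the only one of them that was lowest in KPC630, and the rest lay inside the range of the other lines. Cpe had 123 CPM in KPC630 and 25.8 to 462 CPM in the others, and Stx1a 8.79 CPM and 7.28 to 16.2 CPM. Insm1 had 4 counts in KPC630 and 0 to 18.7 CPM in the others.

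Imprinted genes appeared on both sides. Impact (ENSMUSG00000024423) had 11.4 CPM in KPC630, against 71.5 CPM for KPC142, 76.8 for KPC180, 116 for KPC469, 84.5 for KPC490 and 57.4 for KPC850. KPC630 was 5.02-fold below KPC850 (counting interval 4.32 to 5.84), while the other 5 lines differed from each other by at most 2.02-fold. Mest, a paternally expressed gene of the hydrolase family, had 0.213 CPM from 4 counts in KPC630, against 2.82 CPM for KPC142, 8.07 for KPC180, 20.5 for KPC469, 48.2 for KPC490 and 4.02 for KPC850. The ratio to KPC142 was 13.2 with a wide interval of 4.84 to 50.5. Mest overlaps Copg2 on the opposite strand, and it held fractional counts in all 6 libraries, and how reads were shared between genes was not examined. Dio3, an imprinted deiodinase that inactivates thyroid hormone, had 21.9 CPM in KPC630, against 3.96 CPM for KPC142, 0.971 for KPC180, 7.03 for KPC469, 5.34 for KPC490 and 1.399 for KPC850, 3.11-fold above KPC469. Peg3, a paternally expressed zinc finger gene, was present in KPC630 at 15.2 CPM and in KPC490 at 12.3 CPM, and had 3 counts or fewer in the other four lines. Of 14 imprinted genes at 10 CPM in the list of 41, 3 were highest and 3 lowest in KPC630, with a median log2 ratio of -0.08.

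Impact acts within the integrated stress response, whose genes were examined next. None of the other 30 genes at 10 CPM in that list was 2-fold outside the other lines. Of the 31 genes, 7 were lowest in KPC630 and 1 highest, against 13.6% and 14% of all genes. Their median log2 ratio was -0.27. Trib3, a pseudokinase induced by the factor Atf4, had 8.79 CPM in KPC630 and 14.3 to 74.1 CPM in the others. Chac1, which degrades glutathione, had 6.66 CPM in KPC630 and 7.11 to 32.3 CPM in the others. Slc7a11, the cystine transporter, had 71.1 CPM in KPC630 and 106 to 360.5 CPM in the others. Ddit4, a stress-induced inhibitor of mTORC1 in the glycolysis and hypoxia list, was also lowest in KPC630, at 11.3 CPM against 16.7 to 64.5 CPM in the others.

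The thyroid hormone axis was represented by Dio3, described above, and by Hr. Hr, a co-repressor that binds thyroid hormone and vitamin D receptors, had 26.1 CPM in KPC630, against 2.397 CPM for KPC142, 10.2 for KPC180, 6.54 for KPC469, 10.7 for KPC490 and 5.71 for KPC850, 2.43-fold above KPC490. The receptors themselves were not higher, with 22.7 CPM of Thra in KPC630 against 23.9 to 52.7 CPM in the others, and 12.1 CPM of Thrb in KPC630 against 5.71 to 50.8 CPM in the others. The list of 12 thyroid hormone genes, of which 8 reached 10 CPM, was put together after the values had been seen.

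Clustered gamma protocadherins, single-pass adhesion proteins whose genes each join a variable first exon to shared constant exons, lay both above and below. Pcdhgb2 had 0 counts in KPC630, against 2.52 CPM for KPC142, 17.4 for KPC180, 20.5 for KPC469, 14.9 for KPC490 and 10.7 for KPC850, and was at least 15.8-fold lower than KPC142 against a floor of 3 counts. Pcdhga5 had 1 count in KPC630, against 4.25 CPM for KPC142, 22.9 for KPC180, 3.71 for KPC469, 0.639 for KPC490 and 0.408 for KPC850, and its ratio to KPC850 of 7.66 had an interval of 0.985 to 345. Pcdhga7 had 0 counts in KPC630, against 2.22 CPM for KPC142, 13.1 for KPC180, 7.85 for KPC469, 0.174 for KPC490 and 0.233 for KPC850, and since KPC490 held 3 counts no ratio is given. These 3 genes follow each other on chromosome 18 among the genes at 10 CPM. Pcdhga10, from the same cluster, lay 2.58-fold above KPC180 instead, with 23 CPM in KPC630, against 8.51 CPM for KPC142, 8.92 for KPC180, 0.218 for KPC469, 6.91 for KPC490 and 0 for KPC850. Over the 22 gamma genes, 7 reached 1 CPM in KPC630 and 6 to 17 across the other lines, and their summed level was 92.7 CPM in KPC630 and 87.1 to 225.9 CPM in the others. All 22 held fractional counts in some library, and reads from the constant exons fit every member, so single-gene levels in this cluster are uncertain.

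Several secreted ligands and transcription factors were among the genes below. Wnt10b, a secreted Wnt ligand, had 0 counts in KPC630, against 0.479 CPM for KPC142, 5.58 for KPC180, 19.3 for KPC469, 0.755 for KPC490 and 0.6995 for KPC850. It was at least 3.001-fold lower than KPC142 against the floor of 3 counts, and KPC180 and KPC469 were the lines that clearly expressed it. In the Wnt list 6 of 27 genes at 10 CPM were highest and 1 lowest in KPC630, against 14% and 13.6% of all genes. None of the 27 was 2-fold above the other lines, and the median log2 ratio was 0.43. Ror2, a Wnt co-receptor, had 10.2 CPM in KPC630 and 0 to 7.16 CPM in the others. Sox2, a stem cell transcription factor, had 1 count in KPC630 and between 3 and 1472 counts across the other lines, and no ratio is given because KPC850 held 3. Foxa3, an endodermal transcription factor, had 0.532 CPM in KPC630 and 1.08 to 11.3 CPM in the others, with an interval of 0.887 to 4.91 against KPC142. Angpt2, a ligand of the endothelial receptor Tie2, had 2.18 CPM in KPC630 and 5.52 to 43.5 CPM in the others. Mxd4, a partner of Max that opposes Myc, had 9.69 CPM in KPC630 and 26.9 to 58.9 CPM in the others, 2.78-fold below KPC142.

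The other 4-fold genes below were 1700012B09Rik, Pde4c, Fam78b, Dglucy and Ranbp3l. The gene 1700012B09Rik had 0 counts in KPC630, against 10.3 CPM for KPC142, 4.07 for KPC180, 4.195 for KPC469, 1.57 for KPC490 and 3.44 for KPC850, at least 9.82-fold lower than KPC490. Pde4c, a cyclic AMP phosphodiesterase, had 1 count in KPC630, against 14.7 CPM for KPC142, 7.1 for KPC180, 0.545 for KPC469, 1.39 for KPC490 and 4.84 for KPC850. The ratio to KPC469 was 10.2 with an interval of 1.46 to 444. Fam78b had 2 counts in KPC630, against 0.959 CPM for KPC142, 10.8 for KPC180, 6.81 for KPC469, 3.25 for KPC490 and 0.6995 for KPC850, a ratio to KPC850 of 6.57 with an interval of 1.46 to 60.4. Dglucy, a mitochondrial D-glutamate cyclase, had 1.33 CPM in KPC630, against 19.4 CPM for KPC142, 41.7 for KPC180, 9.698 for KPC469, 7.202 for KPC490 and 42.4 for KPC850. It was 5.41-fold below KPC490 (counting interval 3.5 to 8.68) and overlaps another gene on the opposite strand. Ranbp3l, a Ran-binding protein, had 0.266 CPM from 5 counts in KPC630, against 27.9 CPM for KPC142, 3.58 for KPC180, 64.7 for KPC469, 1.51 for KPC490 and 1.17 for KPC850. KPC469 and KPC142 expressed it most, and KPC630 was 4.38-fold below KPC850 (counting interval 1.59 to 14.9). Ranbp3l was closest to the 4-fold limit from inside and Kcnab1 closest from outside, at 3.98.

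Of the 13 genes at least 4-fold below, 5 had 0 counts and 3 had 1 to 3 counts in KPC630. Once counts under 3 were raised to 3 in every line, 8 of the 13 were still 4-fold below, and 38 of the 41 were still 2-fold below. The contrast was measured most precisely for Ptprn, Impact and Dglucy, the 3 of the 13 with at least 25 counts in KPC630. The whole counting interval lay at or past 2-fold for 34 of the 43 genes above and for 15 of the 41 below, and for 8 of the 41 it included equality. Those 8 were Pcdhga7, Pcdhga5, Slc17a6, Prune2, Ptpn5, Sox2, Qrfp and Foxa3.

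**Figure D2:**
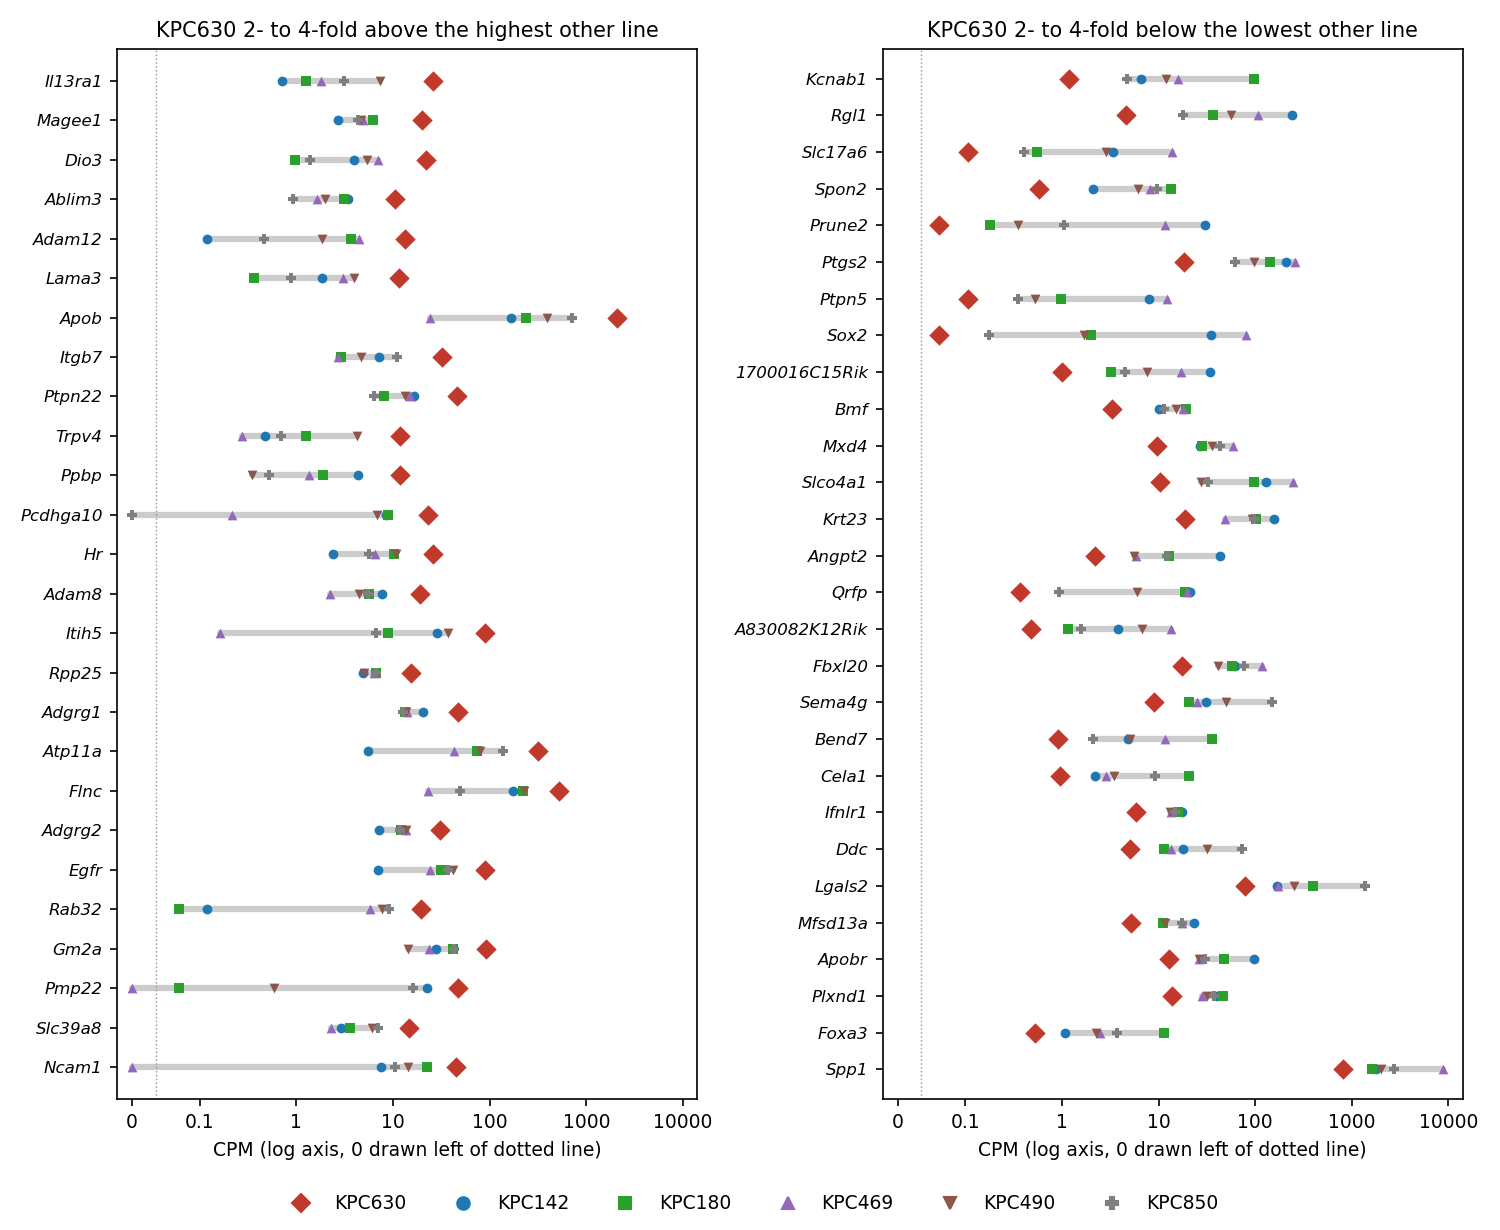
CPM of 54 of the 55 genes between 2- and 4-fold outside the other lines, with 1 point per line on a log axis, KPC630 as red diamonds, the other 5 lines as smaller symbols and a grey bar over their range. Apob at 2063 CPM and Spp1 at 811 CPM had the highest KPC630 levels on their sides, and many of the grey bars span more than a 4-fold range.

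Lipoprotein genes included the most abundant gene above. Apob, the structural protein of very low density lipoproteins, had 2063 CPM in KPC630, against 168 CPM for KPC142, 237 for KPC180, 24.1 for KPC469, 394 for KPC490 and 714 for KPC850. KPC630 was 2.89-fold above KPC850 (counting interval 2.83 to 2.95), and the other lines differed among themselves by up to 29.6-fold. Apobr, a receptor for lipoproteins bearing apolipoprotein B, lay below, with 12.7 CPM in KPC630, against 96.2 CPM for KPC142, 47.4 for KPC180, 26.2 for KPC469, 26.2 for KPC490 and 30.6 for KPC850. Apobr overlaps Cln3 on the opposite strand. Of 12 genes at 10 CPM in a list of lipoprotein genes put together after the values were seen, 2 were highest and 1 lowest in KPC630 and the median log2 ratio was -0.18. Gm2a, a lysosomal activator of ganglioside breakdown, had 91.1 CPM in KPC630 and 14.3 to 42.7 CPM in the others. Atp11a, a phospholipid flippase, had 320.0 CPM in KPC630 and 5.51 to 139 CPM in the others, 2.31-fold above KPC850.

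Cytoskeleton, adhesion and matrix genes made up a further group 2-fold above. Flnc, the muscle filamin that crosslinks actin, had 526 CPM in KPC630, against 174 CPM for KPC142, 219 for KPC180, 23.1 for KPC469, 229 for KPC490 and 49.5 for KPC850, 2.29-fold above KPC490. Ablim3, an actin-binding LIM protein, had 10.5 CPM in KPC630 and 0.933 to 3.42 CPM in the others. Lama3, a chain of the epithelial laminin-332, had 11.6 CPM in KPC630 and 0.364 to 3.95 CPM in the others. The membrane metalloproteases Adam12 and Adam8 followed the same direction. Adam12 had 13.3 CPM in KPC630 and 0.1198 to 4.41 CPM in the others, and Adam8 had 18.9 CPM in KPC630 and 2.23 to 7.79 CPM in the others. Itih5, of the family that links proteins to hyaluronan, had 90.2 CPM in KPC630, against 28.6 CPM for KPC142, 8.98 for KPC180, 0.164 for KPC469, 37.2 for KPC490 and 6.703 for KPC850. KPC469 was nearly silent for Itih5 with 3 counts. Of 34 genes at 10 CPM in the list of matrix proteases and inhibitors, 11 were highest and 3 lowest in KPC630, against 14% and 13.6% of all genes, and the median log2 ratio was 0.21. In that list Plau, the urokinase, had 17.99 CPM in KPC630 and 3.11 to 9.53 CPM in the others, and Adamts1 had 24.8 CPM in KPC630 and 0.899 to 13.2 CPM in the others, both above the other lines by less than 2-fold.

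Receptors, channels and transporters above by 2-fold were Adgrg1, Adgrg2, Trpv4 and Slc39a8. The adhesion G protein-coupled receptor Adgrg1 had 47.4 CPM in KPC630 and 12.7 to 20.5 CPM in the others. Adgrg2, another receptor of that family, had 30.6 CPM in KPC630 and 7.25 to 13.7 CPM in the others. For both receptors the other 5 lines stayed within a 2-fold range of each other. Trpv4, a calcium channel that responds to swelling and stretch, had 11.8 CPM in KPC630 and 0.272 to 4.24 CPM in the others, 2.77-fold above KPC490. Slc39a8, an importer of zinc, had 14.5 CPM in KPC630 and 2.29 to 6.94 CPM in the others. The 3 genes left on this side were Magee1, Rpp25 and Rab32. Magee1, of the melanoma antigen family, had 20.1 CPM in KPC630 and 2.696 to 6.19 CPM in the others. Rpp25, a subunit of ribonuclease P, had 15.4 CPM in KPC630 and 4.85 to 6.64 CPM in the others. Rab32, a small GTPase of lysosome-related organelles, had 19.4 CPM in KPC630 and 0.0607 to 9.09 CPM in the others, with 2 counts in KPC142 and 1 in KPC180.

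Among secreted and epithelial products 2-fold below, Spp1 was the most abundant. Spp1, the phosphoprotein osteopontin, had 811 CPM in KPC630, against 1767 CPM for KPC142, 1628 for KPC180, 8760 for KPC469, 2014 for KPC490 and 2727 for KPC850. It lay 2.01-fold below KPC180, the gene nearest to the limit from inside, while Rps6ka5 at 1.99 was nearest from outside. Lgals2, a galectin of the gut epithelium, had 78.7 CPM in KPC630 and 168 to 1377 CPM in the others. Krt23, a type I keratin, had 18.8 CPM in KPC630 and 48.8 to 156 CPM in the others, 2.595-fold below KPC469. Krt23 thus went against the abundant ductal keratins, which were not low in KPC630. Spon2, a secreted matrix protein, had 0.586 CPM in KPC630 and 2.097 to 13.6 CPM in the others. Cela1, a pancreatic elastase of acinar cells, had 0.958 CPM in KPC630 and 2.22 to 20.6 CPM in the others, and the summed acinar and endocrine list was 1.28 CPM in KPC630 and 2.58 to 28.1 CPM in the others.

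Guidance and signalling genes below by 2-fold included a semaphorin and a plexin. Sema4g, a membrane semaphorin, had 8.94 CPM in KPC630 and 20.8 to 149.9 CPM in the others. Plxnd1, a semaphorin receptor, had 13.7 CPM in KPC630 and 28.1 to 46 CPM in the others. Both were part of a guidance list in which 5 of 38 genes at 10 CPM were highest and 4 lowest in KPC630, with a median log2 ratio of 0.29. Rgl1, an exchange factor that links Ras to Ral, had 4.63 CPM in KPC630, against 239 CPM for KPC142, 36.8 for KPC180, 108 for KPC469, 55.6 for KPC490 and 17.9 for KPC850. KPC630 was 3.86-fold below KPC850, and the other lines covered a 13.4-fold range. Kcnab1, a potassium channel subunit, had 1.17 CPM in KPC630 and 4.66 to 97.8 CPM in the others. Ptpn5, a neuronal tyrosine phosphatase, had 2 counts in KPC630, and its ratio of 3.29 to KPC850 had an interval of 0.587 to 33.3. Slco4a1, an organic anion transporter, had 10.3 CPM in KPC630 and 27.5 to 246 CPM in the others, 2.67-fold below KPC490.

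The last genes on the lower side were Fbxl20, Bend7, Mfsd13a, Prune2 and 2 with identifier-like names. Fbxl20, an F-box protein of a ubiquitin ligase, had 17.4 CPM in KPC630 and 41.3 to 116 CPM in the others. Bend7, a BEN domain protein, had 0.905 CPM in KPC630 and 2.098 to 35.99 CPM in the others. Bend7 thus ran opposite to Bend4. Mfsd13a, a member of the major facilitator family, had 5.22 CPM in KPC630 and 11.1 to 23.4 CPM in the others. Prune2 had 1 count in KPC630 and 3 to 504 counts across the other lines, and no ratio is given because KPC180 held 3. The gene 1700016C15Rik had 1.01 CPM in KPC630 and 3.22 to 34.4 CPM in the others, and A830082K12Rik, which overlaps Nr2f1 on the opposite strand, had 0.479 CPM in KPC630 and 1.15 to 13.6 CPM in the others.

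The rule itself sets the members' levels apart. The genes above had a median of 25.5 CPM in KPC630 and a median of 3.58 CPM for the middle of the other lines, and the genes below had 1.01 CPM in KPC630 and 12.4 CPM in the others. Over all 10234 genes both medians were close, at 42.5 and 42.7 CPM. Of the 41 genes below, 20 were under 1 CPM in KPC630. Of the 43 genes above, 28 were under 10 CPM in all 5 other lines and so passed the expression limit through KPC630 alone. The other 5 lines lay within a 2.35-fold range for Map2 and a 2.02-fold range for Impact. Protein-coding genes made up 42 of the 43 above and 40 of the 41 below. Fractional counts occurred in 14 of the 84 genes. Apart from the gamma protocadherins, 9 members overlap an expressed gene on the opposite strand and 4 on the same strand, Hpgd, Bcl2l15, Sox2 and Spp1, and whether reads were counted by strand is not given in the sources used here.

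Beyond single genes, the lists chosen for this tissue were read as wholes, beside 14% of all genes highest and 13.6% lowest in KPC630. Among lists with at least 10 genes at 10 CPM, proliferation genes were most often highest, with 26 of 41 highest in KPC630, 0 lowest and a median log2 ratio of 0.41, although none was 2-fold above the next line. Rrm2, a ribonucleotide reductase subunit that makes DNA precursors, had 702 CPM in KPC630, against 347 CPM for KPC142, 361 for KPC180, 166 for KPC469, 338 for KPC490 and 246 for KPC850. Cdk4, a kinase of the G1 phase, had 618 CPM in KPC630 and 240.3 to 425 CPM in the others. Genes of cholesterol and fatty acid synthesis had the lowest median, -0.75 over 33 genes, but only 2 of the 33 were lowest in KPC630 and 1 was highest. For Mvd and Hsd17b7, enzymes of sterol synthesis, KPC469 was lower than KPC630, while the other four lines lay above KPC630. Mvd had 36.1 CPM in KPC630, against 96.4 CPM for KPC142, 103 for KPC180, 20 for KPC469, 105 for KPC490 and 87.8 for KPC850.

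**Figure D3:**
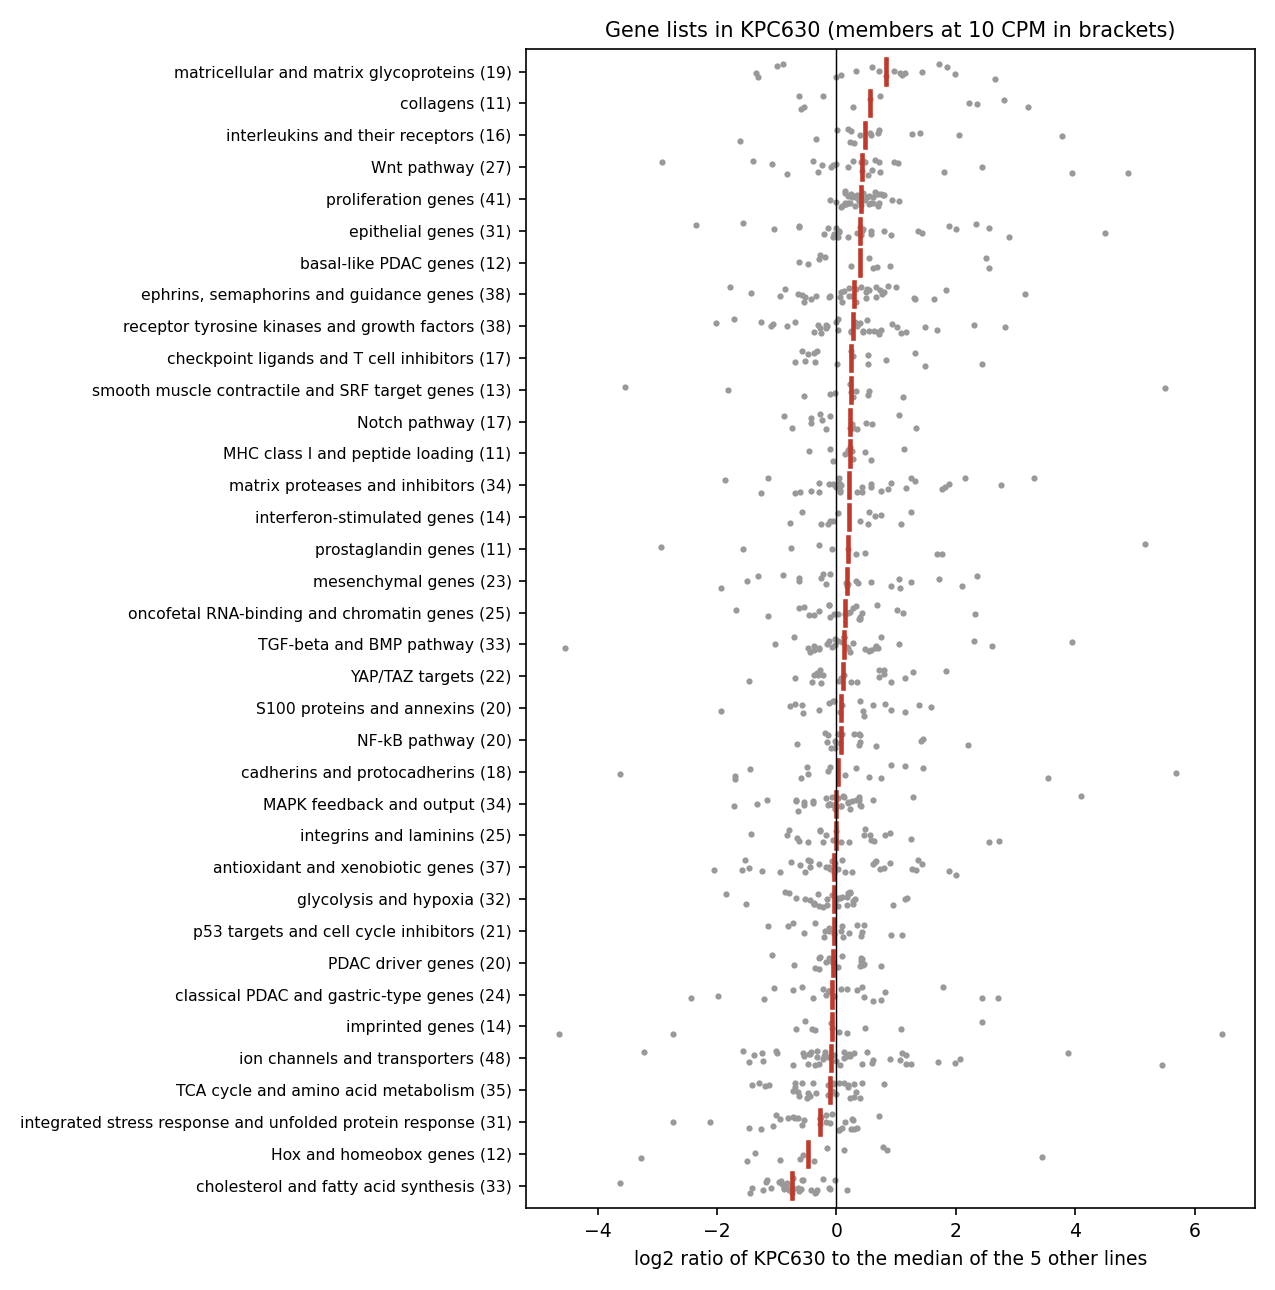
Log2 ratio of KPC630 to the median of the 5 other lines for each gene at 10 CPM (grey points) in the 36 lists with at least 10 such genes, with the median of each list as a red bar. Matricellular genes had the highest median at 0.83 and cholesterol and fatty acid synthesis the lowest at -0.75, and 0.01 was the median over all genes.

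Extracellular matrix lists differed in their medians. Integrins and laminins had a median of -0.01 over 25 genes with 5 highest and 2 lowest, and matrix proteases and inhibitors 0.21 over 34 with 11 highest and 3 lowest. Matricellular and matrix glycoprotein genes had a median of 0.83 over 19 genes, 3 of them highest and 2 lowest, and collagens 0.56 over 11 genes, 1 highest and 0 lowest. Efemp1, a fibulin, had 213 CPM in KPC630 and 25.3 to 193 CPM in the others. Col7a1, the anchoring fibril collagen, had 41.7 CPM in KPC630 and 1.42 to 21.6 CPM in the others, just short of 2-fold above KPC490. Epithelial genes had a median of 0.40 over 31 genes with 7 highest and 1 lowest, and mesenchymal genes 0.17 over 23 with 4 highest and 4 lowest. Cldn3, a tight junction protein, had 90.7 CPM in KPC630 and 0 to 73.7 CPM in the others. Mesenchymal genes went both ways. S100a4 was lowest in KPC630 at 33.3 CPM against 42.7 to 1222 CPM in the others. Col5a1 had 90.9 CPM in KPC630 and 3.32 to 123 CPM in the others, a log2 ratio to their median of 2.36. For Thbs1 that ratio was 1.72, with 168 CPM in KPC630 and 19 to 633 CPM in the others. The mesenchymal list also held Ncam1, 2-fold above, and Spp1, 2-fold below. Basal-like tumour genes had a median of 0.39 over 12, and classical and gastric-type tumour genes -0.08 over 24.

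The medians of 4 further immune-related lists lay between 0.07 and 0.48. MHC class I and peptide loading genes had a median of 0.22 over 11 genes with 3 highest and 0 lowest, and Tapbp, the loading factor tapasin, had 77.6 CPM in KPC630 and 22.1 to 57.5 CPM in the others. Checkpoint ligands and T cell inhibitors had 0.24 over 17 with 0 highest and 0 lowest, and NF-kB pathway genes 0.07 over 20 with 3 highest and 2 lowest. Interleukins and their receptors had 0.48 over 16 with 4 highest and 1 lowest. Il33, an alarmin released from damaged epithelium, had 365 CPM in KPC630, against 216 CPM for KPC142, 108 for KPC180, 54.2 for KPC469, 138 for KPC490 and 143 for KPC850, less than 2-fold above KPC142. Il1r1, the interleukin-1 receptor, was lowest in KPC630 at 23.4 CPM against 27.5 to 128 CPM in the others. Aim2, another sensor of cytosolic DNA, had 47.01 CPM in KPC630 but was higher in KPC850 within a range of 0 to 85.3 CPM in the others. Cd14, a co-receptor for lipopolysaccharide, was lowest in KPC630 at 25.2 CPM against 29.98 to 139 CPM in the others. Pcdh7, the protocadherin named in the study's title, had 3.78 CPM in KPC630, against 4.31 CPM for KPC142, 109 for KPC180, 0.109 for KPC469, 47.6 for KPC490 and 132 for KPC850, so KPC630 was one of the lines with little of it.

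A further 9 pathway lists held no gene 2-fold outside the other lines. Hox and homeobox genes had a median of -0.47 over 12 genes, TGF-beta and BMP genes 0.13 over 33, YAP and TAZ targets 0.11 over 22, Notch genes 0.23 over 17 and PDAC driver genes -0.06 over 20. Glycolysis and hypoxia genes had -0.04 over 32, TCA cycle and amino acid genes -0.10 over 35, antioxidant genes -0.04 over 37 and p53 targets -0.04 over 21. Among them Smad9, a transducer of BMP signals, had 12.2 CPM in KPC630 and 0.2996 to 10.7 CPM in the others, and Pycr1, an enzyme of proline synthesis, was lowest in KPC630 at 8.15 CPM against 13.7 to 98.5 CPM in the others. In the ion channel and transporter list Kcnk1, a potassium channel, had 12.7 CPM in KPC630 and 0 to 6.74 CPM in the others, and Cftr, the chloride channel of ductal cells, had 30.2 CPM in KPC630 and 0.789 to 19.6 CPM in the others, both highest in KPC630 by less than 2-fold.

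Set against each line in turn, KPC630 was nearest to KPC490. At least 4-fold above KPC490 were 152 genes (1.49%) and below it 132 (1.29%), with a Spearman correlation of 0.940 over the 10234 genes of these libraries. Against KPC850 the numbers were 256 above (2.5%) and 148 below (1.45%), with a correlation of 0.929. Against KPC180 they were 315 above (3.08%) and 144 below (1.41%), with 0.921, and against KPC142 398 above (3.89%) and 148 below (1.45%), with 0.902. Against KPC469 they were 349 above (3.41%) and 253 below (2.47%), with 0.880. In every one of these pairs more genes were 4-fold above than below, and all 5 comparisons share the KPC630 library. The nearest line was KPC490 for 11 of the 43 genes above and KPC850 for 14 of the 41 below, and the other numbers of this kind lay between 4 and 9 genes.

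**Figure D4:**
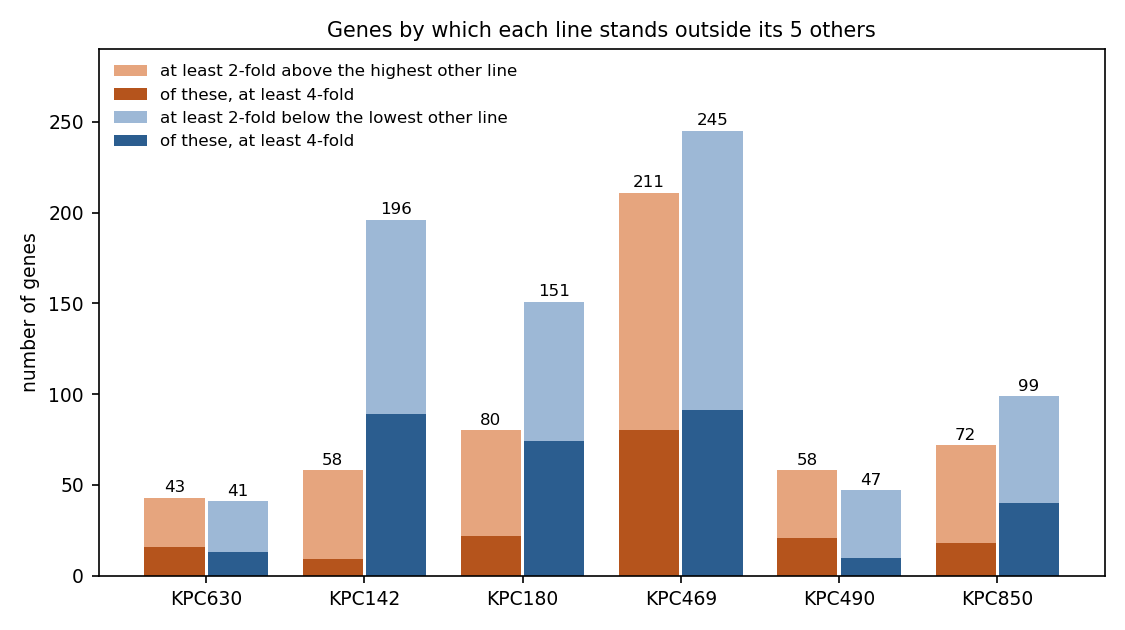
Number of genes by which each line lay at least 2-fold (light bars) or 4-fold (dark bars) above the highest or below the lowest of its 5 others, among 10234 genes at 10 CPM. At 2-fold KPC630 with 43 above and 41 below had the fewest in both directions and KPC469 with 211 and 245 the most, while at 4-fold KPC142 had fewer above (9) and KPC490 fewer below (10) than KPC630 (16 and 13).

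The same rule applied to each line gave the fewest genes for KPC630, both directions together. Its 84 genes (0.821%) stood beside 254 for KPC142 (2.48%), 231 for KPC180 (2.26%), 456 for KPC469 (4.46%), 105 for KPC490 (1.03%) and 171 for KPC850 (1.67%). At 4-fold there were 29 genes for KPC630, beside 98 for KPC142, 96 for KPC180, 171 for KPC469, 31 for KPC490 and 58 for KPC850. Lines with few such genes can still differ from one another, since the rule counts only levels beyond all 5 others.

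Chromosome membership, taken from an annotation of an earlier build, was uneven for levels in KPC630. Over all genes 14% were highest and 13.6% lowest in KPC630, and 0.42% were 2-fold above and 0.401% 2-fold below. The X chromosome had the highest median log2 ratio to the middle of the other lines, 0.39 over 303 genes, of which 36.3% were highest and 1.98% lowest in KPC630. It carried 4 of the genes above, Il13ra1, Magee1 and Adgrg2 among them, and 0 of those below. Chromosome 8 had the lowest median, -0.38 over 578 genes, though against single lines its median was -0.00 for KPC490 and 0.03 for KPC850 and lay between -0.65 and -0.45 for the other three. It was followed by chromosome 13 at -0.33 over 385, where 39.7% of genes were lowest in KPC630. Chromosome 1 had a median of -0.27 with 35.8% of its 586 genes lowest, and held 5 of the genes below, Ptprn and Ptgs2 among them, and 1 above. Chromosome 18 had the same median of -0.27 with 31.9% of its 270 genes lowest, and held 4 of the genes above and 4 of those below. Among these, Pcdhga10 above and Pcdhgb2, Pcdhga5 and Pcdhga7 below belong to the gamma protocadherin cluster, whose single-gene levels are uncertain. Hpgd and Adgrg1 lie on chromosome 8 and were nevertheless above the other lines. Chromosomes 2, 11 and 17 had medians of 0.21, 0.18 and 0.18, and 27.3%, 25.8% and 28.9% of their genes were highest in KPC630. The part that these chromosome-wide levels have in the single genes was not tested.

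**Figure D5:**
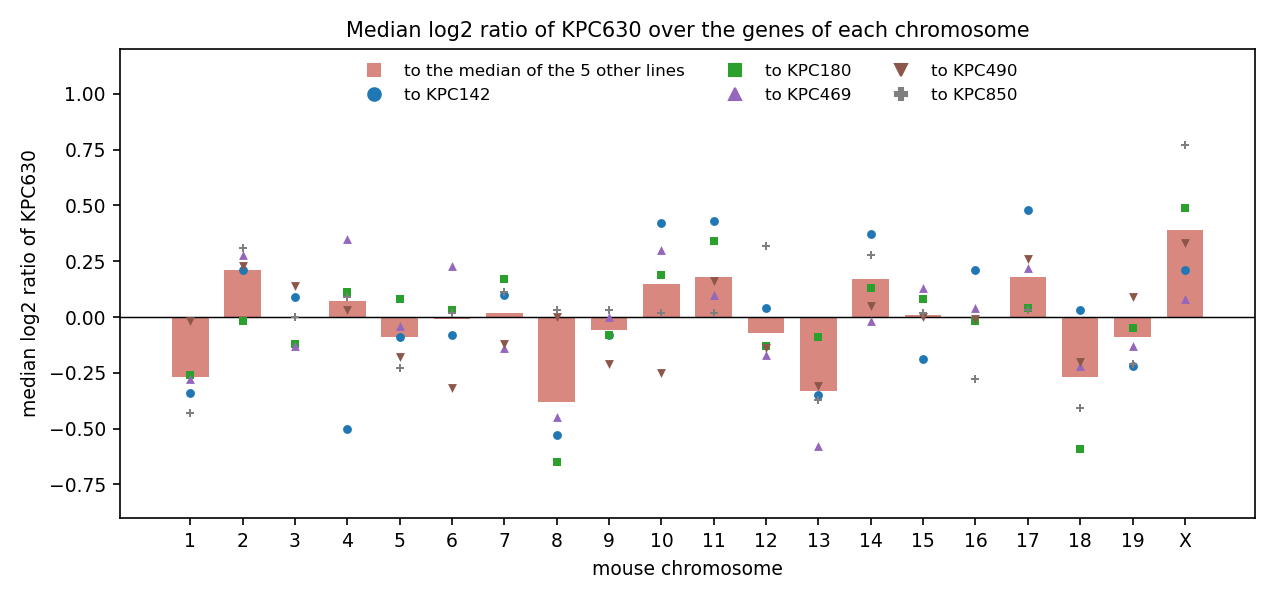
Median log2 ratio of KPC630 over the genes at 10 CPM on each chromosome, to the median of the 5 other lines (bars) and to each other line (symbols). On the X chromosome all 5 symbols lie above 0, between 0.08 and 0.77, and on chromosomes 1 and 13 all 5 lie below 0.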

How the data were processed

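Per the labels' protocols, total RNA of 6 cell lines was isolated with TRIzol and sequenced from a stranded mRNA kit, with 1 library per line. The deposited gene values are expected counts, in which reads that fit several genes are shared among them. Tools listed in the submitters' processing notes, with no role or order, are RSEM 1.3.3, STAR 2.7.10b and Trimmomatic 0.36, with build GRCm39, and whether counting used strand is not given in the sources used here.

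Expected counts were rounded to whole numbers and scaled with TMM factors of edgeR 4.0.16 in R 4.3.3 to CPM. Ratios are between CPM values without a prior count, zero counts are set against a floor of 3 counts (0.16 CPM in KPC630), and log2 ratios use a prior count of 2. No test was possible with 1 library per line, so edgeR supplied only the scaling. DESeq2 1.42.0 supplied size factors for an alternative. The rule was run on simulated data of well-expressed genes with little spread and the same true level in all other lines. That setting does not cover members with few counts or with a wide range among the other lines.

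Symbols came from GENCODE vM21 names, which matched 52029 of 56953 identifiers. That annotation is on GRCm38 and was used for names, chromosome membership, overlaps and gene order, never for coordinates. The members and the 46 gene lists were chosen with earlier results of these data known, and 4 further lists after the values were seen.

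Named were every gene at 4-fold, the 20 farthest above and the 20 farthest below between 2- and 4-fold, every listed gene at 2-fold, up to 3 further genes per list by distance from the median of the other lines, and markers. The other members between 2- and 4-fold were named to account for the 84 genes, apart from a result not reported here, and further genes of a list (Tagln, Cnn1, Ptges, Pla2g4a, Jun, Rps6ka5 and the genes at 0 counts) after their values were seen. A830082K12Rik goes beyond the limit of 2 identifier-like names.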

Additional observations from a re-analysis of the deposited data

How the results depend on the processing

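With DESeq2 size factors, library totals alone or counts as deposited, all 29 genes stayed 4-fold outside the other lines, and at 2-fold the same 43 genes above and 40 or 41 of the 41 below. The counts moved with the expression limit. At 5 CPM there were 25 genes 4-fold above, 20 4-fold below, 76 2-fold above and 62 2-fold below, and at 20 CPM there were 9, 8 and 27 for the first 3 of these. Without a limit, and with a prior count of 2, there were 81 genes 4-fold above, 364 2-fold above and 139 2-fold below. The prior count itself left 8 genes 4-fold below at 2 counts and 5 at 10 counts, with 26 2-fold below at 10. Raising counts under 3 to 3, an alternative added after seeing the data, also left 8 genes 4-fold below. Leaving out 1 other line gave 19 to 34 genes 4-fold above, 14 to 27 4-fold below, 55 to 84 2-fold above and 56 to 64 2-fold below, since fewer lines remain to be exceeded. Leaving out KPC490 gave the 34, with 82 2-fold above, and KPC850 the 27 and the 84, with 26 4-fold above, while KPC469 gave the 64 and KPC180 63 2-fold below. Of 1136 alternative ratios of the 84 genes to their nearest line, 1094 lay within the counting interval, 42 outside it and 0 changed sign. Much of this was fixed in advance. Another expression limit leaves a ratio unchanged, and leaving out a line cannot bring it nearer to equality. The genes were also selected by these same values, so the numbers are no measure of robustness. No paired analysis was possible because each line has 1 library. With no replicate, differences between cultures of 1 line cannot be told from differences between lines, and 12 of the 41 genes below rest on 0 to 3 counts in KPC630.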

Other observations

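Among 1089 genes whose highest level lay between 5 and 10 CPM, below the limit used above, KPC630 was at least 4-fold above the highest other line for 9 and at least 2-fold above it for 33. It was at least 4-fold below the lowest other line for 7 of them and at least 2-fold below it for 21. The genes named next were picked with their values in view. Tbc1d9 had 9.796 CPM in KPC630 and 0.117 to 0.697 CPM in the others. Kif1a, a kinesin that carries synaptic vesicle precursors, had 9.26 CPM in KPC630 and 0 to 0.8496 CPM in the others. Dclk2, a relative of Dclk1, had 6.82 CPM in KPC630 and 0 to 1.39 CPM in the others. The homeobox gene Dlx3 had 7.99 CPM in KPC630 and 0.272 to 0.933 CPM in the others, and the zinc finger gene Zic2 had 6.97 CPM in KPC630 and 0 to 1.63 CPM in the others.

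Ccl9, a chemokine that attracts myeloid cells, had 6.66 CPM in KPC630 and 0.0607 to 1.399 CPM in the others. Dio3os, transcribed next to Dio3, was 2-fold or more above the other lines as Dio3 was, with 9.21 CPM in KPC630 and 0.546 to 3.05 CPM in the others. Ptgds, the prostaglandin D synthase, was below like Ptgs2, with 0.373 CPM in KPC630 and 1.04 to 5.39 CPM in the others. Ihh, a hedgehog ligand, and Hao1, a peroxisomal oxidase, had 0 counts in KPC630, against 0.1198 to 5.34 CPM of Ihh and 0.109 to 5.54 CPM of Hao1 in the others, and no ratio is given because the lowest lines are under the floor of 3 counts. Pcdhga4, a further gamma protocadherin, had 1 count in KPC630 and 0.779 to 7.301 CPM in the others.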
